A study of Mus musculus with 2 samples.

Results

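Glycolysis genes and genes of the response to low oxygen were followed in a pair of primed pluripotent cultures, as a set of 41 genes read from the array gene names. The set was listed by known role, though earlier results of these data were known when it was chosen. It held 4 glucose and lactate transporters, 18 glycolytic enzymes, 5 regulators of glycolytic flux, 4 hypoxia regulators and 10 effectors of the hypoxia response. All 41 were found on the array, among 34650 gene names in all, of which 25851 were detected on at least 1 array. RNA came from mouse E14Tg2A embryonic stem (ES) cells, a line of strain 129/Ola. EpiSC, epiblast stem cells, were made by moving ES cells from serum and LIF to chemically defined minimal medium with N2 and B27, Activin A at 20 ng/mL and FGF2 at 12 ng/mL. ELA-EpiSC were made with the same 2 factors at the same concentrations, but from Epiblast-Like Aggregates (ELA), the floating clusters that ES cells form when LIF and serum are taken away. Both cultures therefore share the line, the medium and the factors, and differ in the passage through aggregates.

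Each group was measured on 1 one-colour Agilent array, hybridized with RNA pooled from 3 experiments. No value below has a replicate, no p-value can be computed, and culture variation is averaged inside each pool and cannot be seen. The sample titles name the groups, whereas the EpiSC source field speaks of an Argonaute pulldown at the undifferentiated stage. The titles were followed here. The arrays were on the same slide and in the same scan, and 0 spots were saturated. All 14 primed epiblast markers were detected on both arrays, with a median difference of 0.17 (log2, ELA-EpiSC minus EpiSC) and a range from -0.84 (Dnmt3b) to 1.68 (Zic2). Past 1 were also Pou3f1 at 1.46 and Cdh2 at 1.16, so these markers were present in both cultures but not at equal levels. Of 10 endoderm markers 7 were lower in ELA-EpiSC and 3 higher (50.8% lower over all detected genes), with a median of -0.75. Hnf4a stood at -5.12 and Gata4 at -2.39, Ttr and Apoa1 were well above background in EpiSC only, and Cer1, Afp and Sox7 were at 0.01, 0.21 and 0.73. Their summed level was 106565 in EpiSC and 80555 in ELA-EpiSC (normalized linear signal). Markers of other fates differed too. Mesoderm markers held T at 2.48, Mixl1 at 1.97 and Mesp1 at -1.66 (summed level 10708 and 19909), neural markers Nes at 2.11 (6919 and 23669), and fibroblast markers Col1a1 at 3.72 and S100a4 at 1.57 (3994 and 6495). The part of these cell types in the results below was not tested. In bulk RNA, fewer cells of a type and less RNA per cell cannot be told apart.

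Glycolysis splits glucose into pyruvate through a chain of enzymes, most of which exist as several isozymes from separate genes, and lactate dehydrogenase can turn the pyruvate into lactate for export. When oxygen is short, the prolyl hydroxylases that mark the alpha subunits of hypoxia-inducible factor (HIF) for destruction lose activity, and HIF then switches on glucose transporters, many glycolytic enzymes and a set of effectors of mitophagy, pH control and vessel growth. Primed pluripotent cells are known for a strongly glycolytic metabolism. HIF binds the core of the hypoxia response element, ACGTG or GCGTG.

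Values are log2 signal after background correction and quantile normalization, and a difference is log2 ELA-EpiSC minus EpiSC, so that a negative value is a lower level in ELA-EpiSC. A gene takes the value of its brightest detected probe. The error that the data allow is that of replicate spots. In 312 probes present as 10 spots each, spots of a probe scattered with a median SD of 0.13 log2 units in EpiSC and 0.16 in ELA-EpiSC, and the difference between arrays with a root mean square SD of 0.10. This is spot noise alone, without labelling or culture. Counts past a difference of 0.5 or 1 were made over genes with a mean log2 signal of at least 7.5, which held 38 of the 41 (all but Car9, Adm and Egln1) and 16649 genes in all.

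Quantile normalization removes a shift that all genes share. On the 8 detected of 10 spike-in control probes, whose added amounts are not given in the sources used here, the ELA-EpiSC array read lower than the EpiSC array by a mean difference of -0.54 after normalization (range -0.86 to -0.26). Setting the spike-ins to 0 adds 0.54 to every difference below, moves the median of all genes from -0.01 to 0.53, and turns the sign of every gene that lies between -0.54 and 0. Directions below are therefore relative to the middle of all genes.

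The promoters of the 5 genes past a difference of 1 that have an entry in the RefSeq table (GRCm38.p6) are shown because they carry the largest differences of the set and belong to genes whose regulation by HIF is the textbook case. Each runs from 250 bases before the transcription start to 50 after it, 5′ to 3′ on the strand of the gene, with ACGTG or GCGTG on either strand in capitals (overlapping matches are joined). Bnip3, Ankrd37, Egln3 and Aldoc were lower in ELA-EpiSC, and Pfkfb3 was higher.
Bnip3, chr7:138909457-138909756, minus strand: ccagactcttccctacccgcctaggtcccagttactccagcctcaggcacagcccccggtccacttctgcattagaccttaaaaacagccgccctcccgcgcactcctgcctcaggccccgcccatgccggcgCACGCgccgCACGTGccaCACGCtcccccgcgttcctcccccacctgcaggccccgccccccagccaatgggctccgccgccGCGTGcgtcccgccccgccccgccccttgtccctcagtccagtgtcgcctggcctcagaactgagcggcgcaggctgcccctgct
Ankrd37, chr8:45999801-46000100, minus strand: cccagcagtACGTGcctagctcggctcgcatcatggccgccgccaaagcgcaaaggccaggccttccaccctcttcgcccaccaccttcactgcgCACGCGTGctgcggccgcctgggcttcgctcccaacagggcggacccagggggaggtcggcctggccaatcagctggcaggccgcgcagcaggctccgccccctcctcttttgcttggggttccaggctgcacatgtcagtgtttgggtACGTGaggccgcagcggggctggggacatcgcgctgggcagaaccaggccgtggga
Egln3, chr12:54203825-54204124, minus strand: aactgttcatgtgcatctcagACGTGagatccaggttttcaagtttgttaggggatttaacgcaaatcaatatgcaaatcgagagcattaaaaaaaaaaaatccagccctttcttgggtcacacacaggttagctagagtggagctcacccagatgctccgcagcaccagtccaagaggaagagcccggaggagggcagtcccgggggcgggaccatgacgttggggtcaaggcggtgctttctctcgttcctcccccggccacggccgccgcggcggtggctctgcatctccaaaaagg
Aldoc, chr11:78322823-78323122, plus strand: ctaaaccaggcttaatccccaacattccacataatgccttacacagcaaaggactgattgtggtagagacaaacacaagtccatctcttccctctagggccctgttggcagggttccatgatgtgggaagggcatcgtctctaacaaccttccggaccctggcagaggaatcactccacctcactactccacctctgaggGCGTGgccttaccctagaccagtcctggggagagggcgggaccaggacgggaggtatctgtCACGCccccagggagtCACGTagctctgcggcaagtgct
Pfkfb3, chr2:11502041-11502340, minus strand: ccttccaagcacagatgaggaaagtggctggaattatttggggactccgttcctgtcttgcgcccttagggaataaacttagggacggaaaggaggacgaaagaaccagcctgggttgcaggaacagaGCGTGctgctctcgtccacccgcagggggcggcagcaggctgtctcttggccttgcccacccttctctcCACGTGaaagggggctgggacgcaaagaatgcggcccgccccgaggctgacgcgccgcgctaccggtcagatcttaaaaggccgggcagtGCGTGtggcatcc
Every one of the 5 held at least 1 match. Bnip3 held 4, the first base of each lying between -117 and -35 from the start, and Egln3 held 1, at -229. Over the set, 34 of the 37 genes with an entry held a match at any of their starts (91.9%). The share was 6380 of 9510 genes with an entry at the minimum level (67.1%) and 12628 of all 27025 genes of the promoter table (46.7%). With ACGTG alone the shares were 26 of 37 (70.3%), 29.0% and 21.8%. Eno2, Gpi1 and Tpi1 held no match, and Bnip3l, Epas1, Ndrg1 and Slc2a3 have no entry. These are letter matches, not bound sites, and several of these genes are on the list because they are known HIF targets. Genes with a match included both Bnip3, with the lowest difference of the set, and Pfkfb3, with the highest. With a match in 34 of 37 genes this was nearly bound to be so, and it says nothing about matches and direction. For Pfkfb3 and Aldoc, which have 2 starts each in the table, the start with most matches is shown.

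Over all 41 genes the set lay close to the middle of the array. The median difference was -0.05, beside -0.01 for all detected genes, and 24 genes were lower and 17 higher in ELA-EpiSC (58.5% lower, background 50.8%). Differences were small for many: 19 genes lay within 0.25 of 0 and 9 within 1 spot SD. The tails held more of the set on the EpiSC side. Past a difference of 1, 4 of 38 genes were higher in EpiSC (10.5%, background 4.46%), namely Bnip3, Ankrd37, Egln3 and Aldoc, and 2 were higher in ELA-EpiSC (5.26%, background 4.54%), namely Pfkfb3 and Ndrg1. Past 0.5, 10 of 38 were higher in EpiSC (26.3%, background 13.7%) and 4 in ELA-EpiSC (10.5%, background 13.6%). With the spike-ins set to 0, the counts past 0.5 were 4 and 19 in place of 10 and 4. Those past 1 were 2 and 4 in place of 4 and 2. The median of all genes was itself 0.53 in that setting, so 19 of 38 past 0.5 is not particular to this set. Shares over all genes were not counted there.

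**Figure D1:**
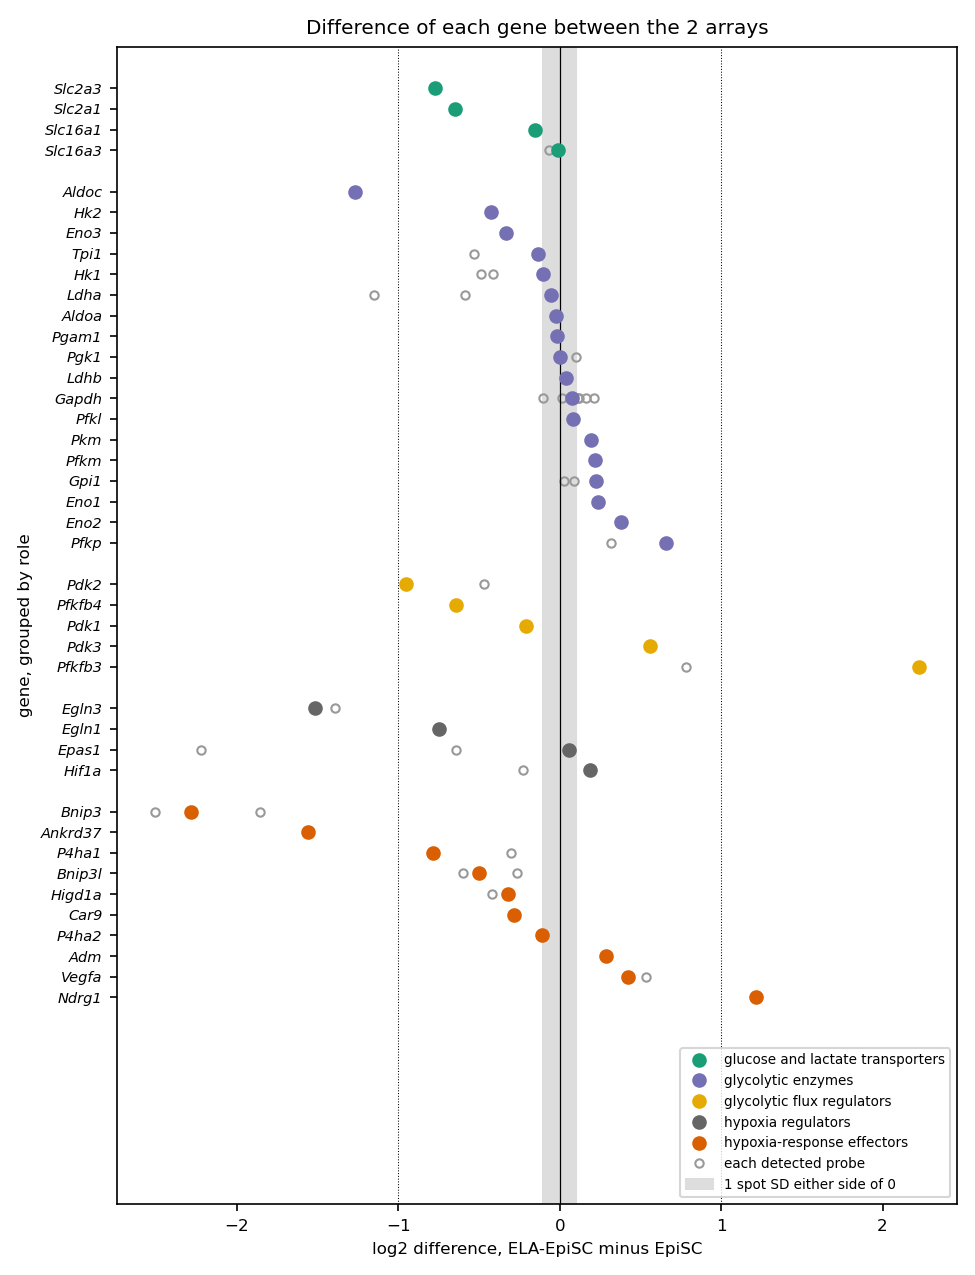
Log2 difference, ELA-EpiSC minus EpiSC (horizontal axis), of each of the 41 genes, grouped by role (vertical axis). Filled points are the brightest detected probe, open circles each detected probe, the grey band 1 spot SD (0.10) either side of 0, and dotted lines a difference of 1. Most enzymes lie within 0.25 of 0, while Bnip3, Ankrd37, Egln3 and Aldoc lie under -1 and Pfkfb3 and Ndrg1 over 1. Setting the spike-ins to 0 would move every point 0.54 to the right and turn the sign of those between -0.54 and 0.

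Both glucose transporters of the set were lower in ELA-EpiSC, whereas both lactate transporters lay near 0. Slc2a3, which encodes the high-affinity glucose transporter GLUT3, gave 16.45 in EpiSC against 15.68 in ELA-EpiSC, a difference of -0.77 (1.71-fold lower, -1.08 to -0.24 over the scalings). Slc2a1, which encodes the widespread glucose transporter GLUT1, gave 16.38 and 15.73, a difference of -0.65 (1.57-fold lower, -1.02 to -0.12 over the scalings). The order was already there in the scanned signal, at 92165 and 53002 intensity units for Slc2a3 and 87690 and 54770 for Slc2a1. Each gene has 1 probe, and both stayed under 0 with the spike-ins set to 0. Slc16a3, the lactate exporter MCT4, differed by -0.01, and Slc16a1, the lactate carrier MCT1, by -0.15, and both were above 0 with the spike-ins set to 0 (0.53 and 0.38). Over the 4 transporters the median was -0.40, and 0.13 with the spike-ins set to 0. Slc2a4, a glucose transporter outside the set, went the other way. It was higher in ELA-EpiSC by 0.90, from 1 probe with a mean log2 signal of 8.48. Lower levels in ELA-EpiSC were therefore not shared by every glucose transporter detected.

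By their brightest probes, most enzymes of the main chain differed little. Over the 18 the median was 0.02, with 8 lower and 10 higher in ELA-EpiSC (50.8% lower over all detected genes). Past 1 in either direction was 1 gene, Aldoc, on the EpiSC side (background 4.46%). Past 0.5 was 1 further gene, Pfkp, on the ELA-EpiSC side (background 13.6%). The enzyme median has no stable sign: it was -0.26 with scaling to the 75th percentile and 0.56 with the spike-ins set to 0. Most of them sat within 0.25 of 0. Among these were Aldoa (aldolase A) at -0.02, Pgam1 (phosphoglycerate mutase) at -0.02, Pgk1 (phosphoglycerate kinase) at 0.00, Gapdh (glyceraldehyde-3-phosphate dehydrogenase) at 0.08, Gpi1 (glucose-6-phosphate isomerase) at 0.22, Eno1 (enolase 1) at 0.24, Pkm (pyruvate kinase) at 0.19, Tpi1 (triose phosphate isomerase) at -0.13, Hk1 (hexokinase 1) at -0.10 and Ldha (lactate dehydrogenase A) at -0.05. Each of those under 0 was above 0 with the spike-ins set to 0. Dimmer probes of Hk1, designed on another transcript, differed by -0.41 and -0.49. Gapdh and several of the others have many processed pseudogenes, so that their probes may read more than 1 locus, and 2 Gapdh probes are placed on chromosome 7 by the array annotation while the other 6 are on chromosome 6.

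The 2 enzymes past 0.5 each had sister isozymes nearer to 0. Aldoc, the brain-type aldolase, gave 13.84 in EpiSC against 12.57 in ELA-EpiSC, a difference of -1.27 (2.41-fold lower, -1.39 to -0.73 over the scalings). Its scanned signal was 13686 and 6638 intensity units. The neighbouring isozyme Aldoa stood at 17.49 and 17.47, so within aldolase the difference was in Aldoc. Pfkp, the platelet-type phosphofructokinase, gave 9.01 and 9.67, a difference of 0.66 (1.58-fold higher, 0.64 to 1.19 over the scalings), and its second probe 0.32. The other phosphofructokinases stood at 0.08 (Pfkl, liver type) and 0.22 (Pfkm, muscle type). Hk2, the hexokinase that HIF is known to induce, differed by -0.42, Eno3, the muscle enolase, by -0.33, and Eno2, the neuronal enolase, by 0.38. Ldhb, the lactate dehydrogenase of heart, was at 0.04. Hk2 and Eno3 were above 0 with the spike-ins set to 0 (0.11 and 0.20).

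**Figure D2:**
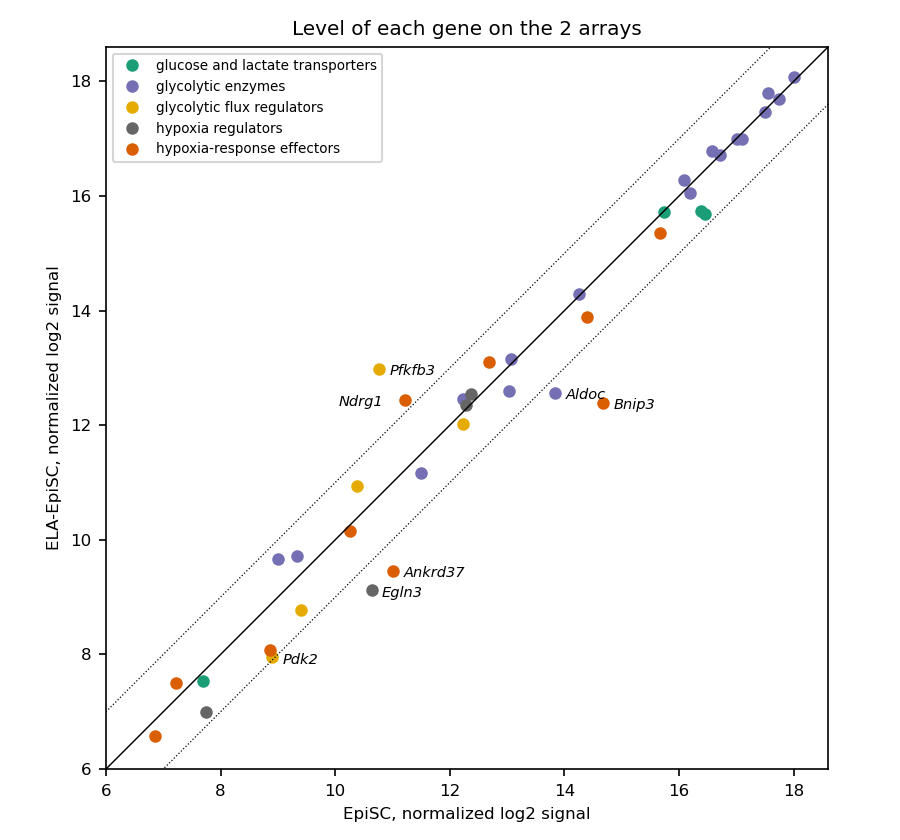
Normalized log2 signal in EpiSC (horizontal axis) against that in ELA-EpiSC (vertical axis), 1 point per gene, coloured by role. The solid line is equality and the dotted lines are a difference of 1. The enzymes follow the solid line, Pfkfb3 and Ndrg1 lie above the upper dotted line, and Bnip3, Ankrd37, Egln3 and Aldoc lie below the lower one. With the spike-ins set to 0 every point would move up by 0.54, and those between the solid line and 0.54 under it would cross it.

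The regulators of flux held the gene with the highest difference of the set and lay on both sides of 0. Pfkfb3 makes fructose 2,6-bisphosphate, a potent activator of phosphofructokinase. It gave 10.76 in EpiSC against 12.99 in ELA-EpiSC, a difference of 2.22 (4.67-fold higher, 2.21 to 2.76 over the scalings). The scanned signal was 1533 and 8783 intensity units, and a second, dim probe, designed on another transcript, differed by 0.78. Pfkfb4, a bifunctional enzyme of the same family, lay on the other side, at 9.41 and 8.77, a difference of -0.64 (1.56-fold lower, -0.67 to -0.11 over the scalings). The pyruvate dehydrogenase kinases, which shut the entry of pyruvate into mitochondrial oxidation, were split as well. Pdk2 gave 8.90 and 7.95, a difference of -0.95 (1.93-fold lower, -1.30 to -0.41 over the scalings), and its second probe -0.47. Pdk3 gave 10.38 and 10.93, a difference of 0.56 (1.47-fold higher, 0.55 to 1.09 over the scalings). Pdk1, the kinase that HIF is best known to induce, differed by -0.21, and by 0.33 with the spike-ins set to 0.

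Of the hypoxia regulators, the HIF alpha subunits were near 0 by their brightest probes and the prolyl hydroxylases were lower in ELA-EpiSC. Egln3, a prolyl hydroxylase that is itself a HIF target, gave 10.64 in EpiSC against 9.12 in ELA-EpiSC, a difference of -1.52 (2.86-fold lower, -1.65 to -0.98 over the scalings). Its second probe differed by -1.39, so both probes were lower in ELA-EpiSC. Egln1, the main oxygen sensor of the family, differed by -0.75 from scanned signals of only 167 and 95.7 intensity units, and it is under the minimum level. Hif1a, the HIF-1 alpha subunit, differed by 0.19, with 12.37 in EpiSC and 12.55 in ELA-EpiSC, and a dim second probe on another transcript by -0.23. HIF activity is set largely by protein stability, which RNA levels do not measure.

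Epas1, which encodes the HIF-2 alpha subunit, had no single answer. Its 3 probes are shown because they lie on 1 transcript and differ by more than 2 log2 units; the first 30 of the 60 bases of each probe are given, 5′ to 3′ as in the array files, named by the base of the transcript at which the probe starts.
Epas1, base 3188: ccaagcagtggcctttatctgacatgctca
Epas1, base 3279: aaagtgttctgaaattttataagatttccc
Epas1, base 5216: tcctgtccatgtaacaacttcatgaccatt
The probe at 3279, the brightest, gave 12.29 and 12.35, a difference of 0.06. The probe at 5216, nearest the end of the transcript, gave 11.40 and 9.18, a difference of -2.22, and the dim probe at 3188 gave 7.24 and 6.59, a difference of -0.64. The brightest probe thus placed Epas1 among the genes without a difference, and the probe nearest the 3′ end would have placed it among the lowest of the set. Which of them follows the full transcript was not tested.

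Probes of Ldha also differed along the transcript. Its 3 probes differed by -1.15 at base 351, -0.59 at base 970 and -0.05 at base 1755, and Tpi1 showed -0.53 at base 634 and -0.13 at base 1204. In these genes the probes farther from the 3′ end read lower in ELA-EpiSC. They were also the dimmer probes, so position and brightness cannot be told apart here. In EpiSC the Ldha probes scanned at 14798, 78413 and 224799 intensity units, in the same order. The brightest probe thus gave the value nearest 0 in both genes. In P4ha1 and Bnip3l the order was the other way, with -0.30 at base 3002 and -0.79 at base 3615 for P4ha1 and -0.26 at base 943 and -0.60 at base 3177 for Bnip3l. Over the 8 transcripts of the set with detected probes at least 300 bases apart, the first minus the last probe had a median of 0.21, with 3 below 0. Over all 2789 such transcripts of the array it had a median of -0.06, with 58.2% below 0. The set thus had no shared order along the transcript. Of the 18 genes with at least 2 detected probes, 15 had all probes on 1 side of 0, and 23 genes rest on 1 probe.

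**Figure D3:**
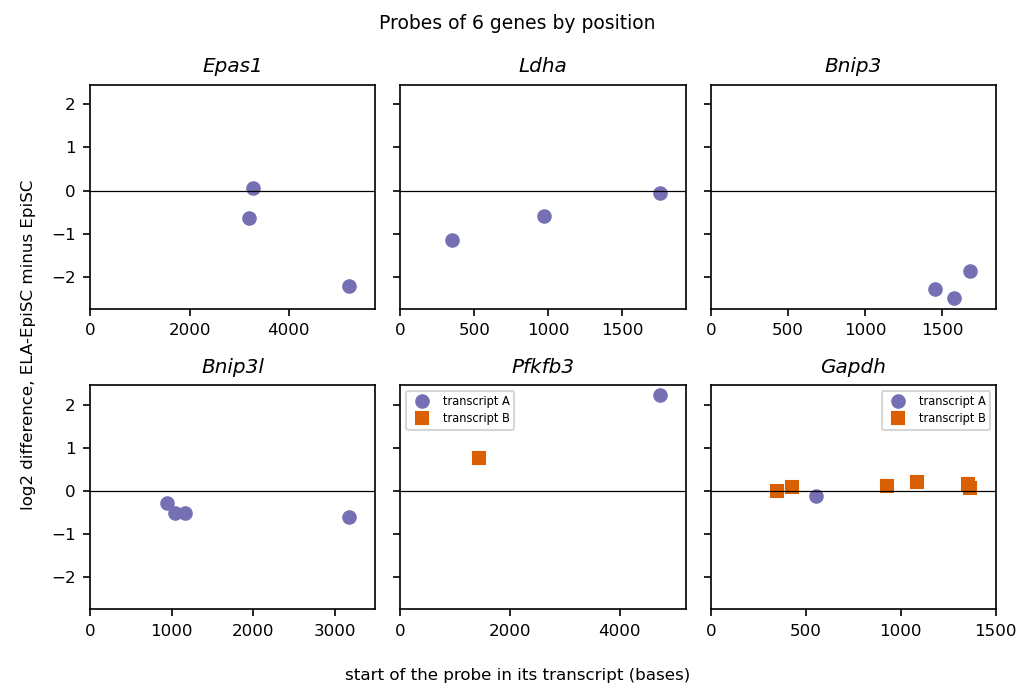
Log2 difference of each detected probe (vertical axis, ELA-EpiSC minus EpiSC) against the base of its transcript at which it starts (horizontal axis), for 6 genes, with transcripts of 1 gene told apart by marker. Bnip3 is at -1.86 or lower and Pfkfb3 at 0.78 or higher at every probe, Gapdh lies near 0 along its length, and Ldha and Epas1 take different values at different positions. With the spike-ins set to 0 every point would move up by 0.54, and probes between -0.54 and 0 would be above 0.

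The effectors of the hypoxia response held the largest difference on the EpiSC side. Their median was -0.30, with 7 of 10 lower in ELA-EpiSC (background 50.8%), and 0.23 with the spike-ins set to 0. Of the 8 at the minimum level, 4 were past 0.5 on the EpiSC side (background 13.7%) and 1 on the ELA-EpiSC side (background 13.6%). Bnip3, a mitophagy receptor of the outer mitochondrial membrane, gave 14.67 in EpiSC against 12.39 in ELA-EpiSC, a difference of -2.29 (4.88-fold lower, -2.52 to -1.75 over the scalings). All 3 of its probes were lower, between -2.51 and -1.86, and the scanned signal was 25445 and 5881 intensity units. It was the lowest gene of the set under the reported processing. Ankrd37, an ankyrin repeat protein known as a HIF-1 target, gave 11.01 and 9.45, a difference of -1.56 (2.95-fold lower, -1.73 to -1.02 over the scalings).

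Smaller differences on the same side were found for genes of matrix and mitochondria. P4ha1, a subunit of the collagen prolyl hydroxylase, gave 8.86 and 8.07, a difference of -0.79 (1.72-fold lower, -0.97 to -0.25 over the scalings), while P4ha2, its sister subunit, differed by -0.11. Bnip3l (Nix), the mitophagy receptor related to Bnip3, gave 14.39 and 13.89, a difference of -0.50 (1.42-fold lower), with its 4 probes between -0.60 and -0.26, and it was at 0.03 with the spike-ins set to 0. So Bnip3 and Bnip3l were on the same side, with the larger difference in Bnip3. Higd1a, a small protein of the inner mitochondrial membrane, differed by -0.32, and Car9, a carbonic anhydrase of the cell surface and a classic hypoxia marker, by -0.28 from signals of 77.4 and 66.8 intensity units, close to background. Both were above 0 with the spike-ins set to 0 (0.21 and 0.25), as was P4ha2 (0.42).

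In 3 effectors the level was higher in ELA-EpiSC. Ndrg1, a cytoplasmic stress-response protein that hypoxia strongly induces in many cell types, gave 11.22 in EpiSC against 12.44 in ELA-EpiSC, a difference of 1.22 (2.33-fold higher, 1.17 to 1.75 over the scalings). Its scanned signal was 2134 and 6085 intensity units, from 1 probe. Vegfa, the vascular growth factor, differed by 0.42, and by 0.54 at its second probe. Adm, the vasodilator peptide adrenomedullin, differed by 0.29 from signals of 111 and 163 intensity units, under the minimum level. Genes known as targets of HIF were thus found on both sides. Bnip3, Ankrd37, Egln3, Slc2a1, Slc2a3 and Hk2 were higher in EpiSC, and Ndrg1, Pfkfb3 and Vegfa in ELA-EpiSC. Hk2 (-0.42) and Vegfa (0.42) were under 0.5, and Pdk1 lay at -0.21. Hk2 and Pdk1 were above 0 with the spike-ins set to 0. These genes are examples, not a count of every target in the set, and give no balance between the sides.

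**Figure D4:**
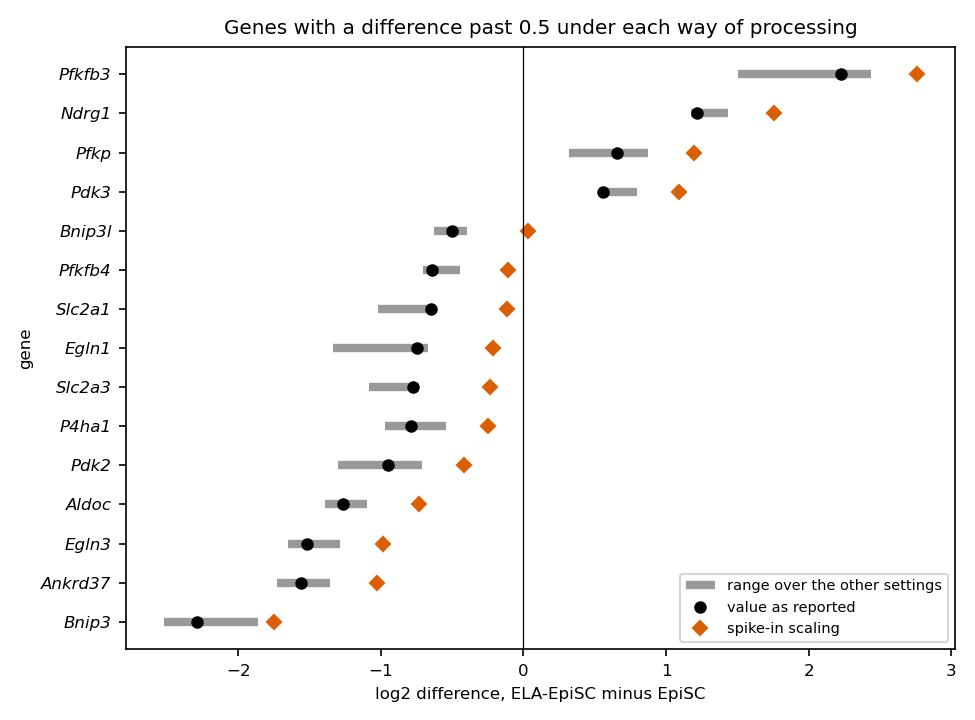
Log2 difference, ELA-EpiSC minus EpiSC (horizontal axis), of the 15 genes with a difference past 0.5, Egln1 under the minimum level included (vertical axis). Black points are the reported values, grey bars the range over the other settings and orange diamonds the value with the spike-ins set to 0. Of these 15 genes, under the settings run, Bnip3l alone crosses 0, at 0.03 with the spike-ins set to 0, and Bnip3, Ankrd37, Egln3, Aldoc, Pfkfb3 and Ndrg1 stay farthest from 0.

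Other genes of these pathways were read from fixed lists. Of 18 further glycolytic isozymes and regulators, 15 were detected, with a median of -0.05, 9 lower and 6 higher (background 50.8% lower). Hkdc1, a hexokinase-like gene, was lower in ELA-EpiSC, at 11.47 and 8.38, a difference of -3.09, and Pgam2, the muscle phosphoglycerate mutase, was at -1.03. Ldhd, Pklr and Slc2a2 did not clear background in either culture. Genes of the pyruvate dehydrogenase complex and of pyruvate entry had a median of 0.35 over 10 genes. Of these 7 were higher in ELA-EpiSC, beside 50.8% lower over all detected genes. The list includes Pcx, pyruvate carboxylase, at 0.68. Of these 10, 4 were past 0.5 on the ELA-EpiSC side (background 13.6%) and 1 on the EpiSC side (background 13.7%). Mpc1, a subunit of the mitochondrial pyruvate carrier, was at 1.03 and its partner Mpc2 at -0.23. Dlat and Pdhb, subunits of pyruvate dehydrogenase, were at 0.74 and 0.65. Pdp2, a phosphatase that activates it, was at -0.69, but its second probe was at -0.03.

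Gluconeogenesis and glycogen genes had a median of -0.07 over 13 detected of 14, with Pck2, the mitochondrial phosphoenolpyruvate carboxykinase, at 1.44 and Fbp1, a fructose bisphosphatase, at -1.14. The pentose phosphate pathway, which branches off at glucose 6-phosphate, had a median of -0.08 over 10 genes, 8 of them lower (background 50.8%). Rpia (ribose 5-phosphate isomerase) alone was past 1, at -1.14 (background 4.46% on the EpiSC side). Neither list was far from the middle of all genes. With the spike-ins set to 0 the medians of these lists were 0.49 for the isozymes, 0.89 for pyruvate entry, 0.47 for gluconeogenesis and glycogen and 0.45 for the pentose phosphate pathway.

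Further parts of the HIF machinery had a median of 0.16 over 12 genes (0.69 with the spike-ins set to 0). In ELA-EpiSC 8 were higher and 4 lower, beside 50.8% lower over all detected genes. Some on either side lay within 1 spot SD of 0. Cited2, which competes with HIF for its coactivators and is itself induced by it, gave 12.13 and 14.07, a difference of 1.94, and Siah2, a ubiquitin ligase that acts on prolyl hydroxylases, gave 8.30 and 10.11, a difference of 1.81. Egln2, the remaining prolyl hydroxylase, was at -0.77, and its second probe at -0.36. All 3 hydroxylase genes were thus lower in ELA-EpiSC by their brightest probes, though Egln1 is under the minimum level. The second Egln2 probe would be above 0 with the spike-ins set to 0. Vhl, which targets hydroxylated HIF, was at 0.00. Of 30 further hypoxia-inducible genes, 28 were detected, 16 higher and 12 lower (background 50.8% lower). Their median was 0.09 (0.62 with the spike-ins set to 0). Past 1 on the ELA-EpiSC side (background 4.54%) were Bhlhe40 (a transcriptional repressor) at 2.66, Stc2 (stanniocalcin 2) at 1.87 and Tmem45a at 1.12. Past 1 on the EpiSC side (background 4.46%) were Cxcr4 (a chemokine receptor) at -1.24 and Ccng2 (cyclin G2) at -1.14. Edn1 (endothelin 1) was well above background on the ELA-EpiSC array only. The wider list thus held genes past 1 on both sides.

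**Figure D5:**
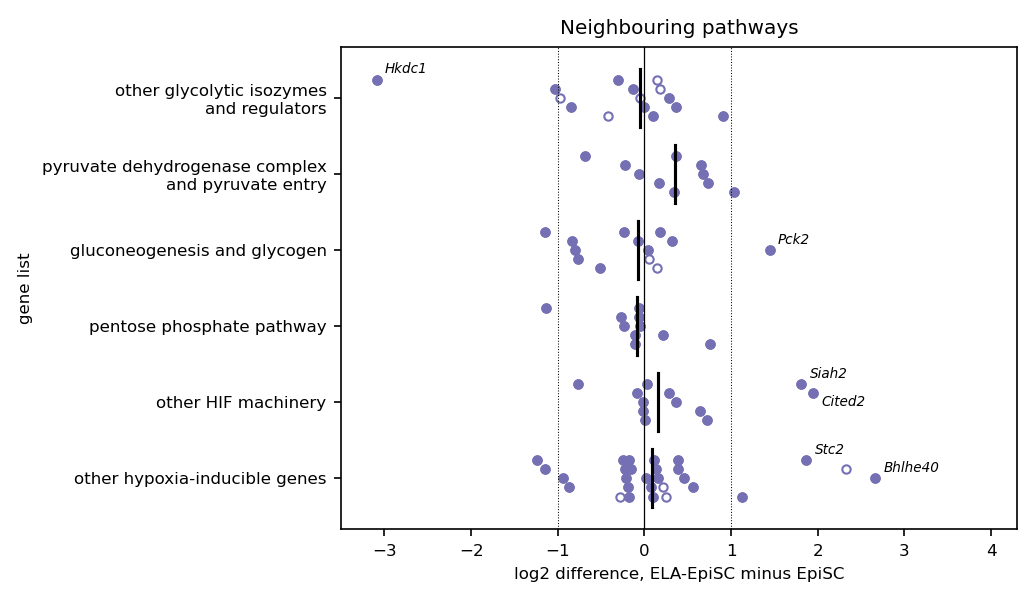
Log2 difference, ELA-EpiSC minus EpiSC (horizontal axis), of each detected gene in 6 lists of neighbouring pathways (vertical axis). Filled points are genes at the minimum level, open points genes under it, vertical bars the list medians and dotted lines a difference of 1. Pyruvate entry has its median at 0.35, the other lists lie between -0.08 and 0.16, and Bhlhe40 and Hkdc1 are the farthest points. With the spike-ins set to 0 every point and median would move 0.54 to the right, and all 6 medians would be above 0.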

How the data were processed

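RNA of each culture was labelled with Cy3 (50 ng per the labels; each sample a pool of 3 experiments) and hybridized to Agilent SurePrint G3 mouse arrays. The deposited scanner files hold spot intensity, not normalized, made with Feature Extraction 10.7.3.1 per the file headers (9.1 per the submitters' processing notes). The authors also deposited log2 values that they background-corrected and quantile normalized with limma, with method and offset not given in the sources used here; these served as an alternative. Here, mean spot intensity and median local background were corrected by normexp (offset 50) with limma 3.58.1 in R 4.3.3, control spots and outlier-marked spots (158 and 117) were left out, the arrays were quantile normalized, and spots of a probe were averaged as log2. The offset compresses differences of dim genes. Detection of a probe required the scanner's flag for signal well above background on a share of at least 0.5 of its spots, and a gene took its brightest detected probe.

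With 1 array per group, no test was run. Sizes of 1 and 7.5 come from the study's methods. All members are named, with full values past 0.5 and, from each neighbouring list, the genes past 1. Other genes were added after their values were seen: the cell type markers, Slc2a4, Pcx, Dlat, Pdhb, Mpc2, Pdp2, Egln2, Vhl and Edn1. The members and lists were chosen with earlier results of these data known. The rest of those lists is given by counts and medians, and a few genes were left out of them and are not reported here. Names are those of the array; 40 of the 41 members carry an accession with the same symbol in the RefSeq table (GRCm38.p6), and Hk1 has none there. Promoters come from RefSeq (GRCm38.p6), and probe positions are those of the array files. Normalization was tested on simulated data. A set of 16 alternatives and 1 added after seeing the data were run. Median differences of the neural, mesoderm and fibroblast markers were 0.31, -0.26 and 0.34.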

Additional observations from a re-analysis of the deposited data

How the results depend on the processing

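No paired analysis was possible because 1 array stands for each culture. Medians and counts depended most on scaling, and single genes also on the probe. The median of all members, -0.05, was -0.33 with the processed signal scaled to the 75th percentile, -0.33 with the 75th percentile after normexp and 0.48 with the spike-ins set to 0. Over the same settings the enzyme median, 0.02, was -0.22, -0.26 and 0.56, and -0.032 with median scaling. The effector median, -0.30, was -0.60, -0.56 and 0.23, and -0.41 with an offset of 0 and with the deposited log2 values. The median of all genes itself was -0.09, -0.18 and 0.53 in these 3 settings. Relative to it, members lay at -0.24, -0.15 and -0.05 and effectors at -0.51, -0.38 and -0.30. With the spike-ins set to 0, 10 members were lower in ELA-EpiSC in place of 24, past 1 the counts were 4 and 2 (ELA-EpiSC side first) in place of 2 and 4, and past 0.5 they were 19 and 4 in place of 4 and 10. Of the differences past 1, none turned its sign under any setting run. Of the 41 members, 14 turned sign with the spike-ins and 14 under at least 1 other setting. In 5 of them (Pgk1, Pdk1, Slc16a1, Slc16a3 and P4ha2) the scanned signals were in the opposite order to the normalized values. For Epas1, the probe nearest the 3′ end, a choice added after seeing the data, gave -2.22 in place of 0.06, and the mean of all probes gave 1.502 in place of 2.22 for Pfkfb3 and -0.60 in place of -0.05 for Ldha. Replicate spots cover spot noise only, so the spread between cultures is not known for any gene here, and genes near background, Car9, Adm and Egln1, are the least precise.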
